A study of Mus musculus with 6 samples.

Results

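The genes described here are 41 genes of excitation-contraction coupling and calcium handling in skeletal muscle, chosen by symbol out of the 24411 genes in the count table. They were compared in extensor digitorum longus (EDL), a fast-twitch muscle, between mice that lack Akt1 and Akt2 in skeletal muscle (mAktDKO, a double knockout) and control mice by RNA sequencing. The mAktDKO mice carry Akt1 and Akt2 alleles flanked by loxP sites together with a Cre recombinase expressed from the Mlc1f (myosin light chain) locus, which is active in skeletal muscle fibres. The control mice are labelled Akt1/2-floxed, so that the floxed alleles are common to both groups. All the mice were 50 weeks old and labelled C57BL/6J, and each group had 3 mice. The study used male mice unless it states otherwise. Cells in the muscle other than fibres keep Akt in this model. The sources used here do not say whether mice of a group were littermates.

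In excitation-contraction coupling, an action potential runs down the T-tubules, tube-like folds of the fibre membrane, and moves the voltage sensor CaV1.1. The sensor is mechanically coupled to the ryanodine receptor RYR1 in the facing membrane of the sarcoplasmic reticulum (SR) at a junction called the triad, and RYR1 then lets calcium out into the cytosol. The calcium triggers contraction and is bound by buffers and pumped back by the SERCA pumps, and fast fibres hold large amounts of the pump SERCA1, of the cytosolic buffer parvalbumin and of the SR buffer calsequestrin 1.

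Of the members, 13 were lower in every mAktDKO mouse than in any control mouse, and 0 were higher in every mAktDKO mouse. These were the voltage sensor subunits Cacna1s and Cacng6 and the adaptor Stac3, the calmodulin gene Calm3, the triad and SR membrane genes Jph2, Jsrp1 and Tmem38b, the buffers Casq2, Hrc and Pvalb, the pump Atp2a1, and the T-tubule genes Bin1 and Cav3. The share of genes whose groups did not overlap was 31.7% among the members and 31.1% among the 12892 tested genes, where 16.6% had the mAktDKO mice below the control mice and 14.6% above them. The differences were small. The log2 fold change (mAktDKO against control) ranged from -0.62 for Jsrp1 to 0.40 for Ryr3, with a median of -0.11 over the members and 0.02 over the tested genes.

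At the adjusted p threshold of 0.01 (edgeR quasi-likelihood test with Benjamini-Hochberg adjustment over the 12892 tested genes), 0 of the 41 members passed, and 3 of the tested genes did (0.0233%). At 0.05, 1 member passed, Jsrp1, beside 1.18% of the tested genes, and 0.915% that passed and were lower. An unadjusted p under 0.05 was found in 14 members, in each of which the mAktDKO mice were lower, beside 24.5% of the tested genes in either direction and 13.1% in this one. DESeq2, the tool the study used and an alternative here, passed 5 members at an adjusted p under 0.01 (Calm3, Jph2, Jsrp1, Pvalb and Cav3), beside 3.09% of the genes it adjusted. Each of the 5 was lower in the mAktDKO mice, beside 2.28% of the genes. With its independent filtering tuned to the 0.01 threshold it passed 6, the sixth being Tmem38b, beside 3.55% of the genes. This version was chosen after the data were seen.

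The direction over the list depends on how the libraries are scaled. With TMM scaling, 30 members had a log2 fold change below 0 and 11 above it, beside 47.5% of the tested genes below 0. With library totals 19 were below 0 and 22 above it, and the member median was 0.03 while that of the tested genes was 0.16, so that the difference of the medians was -0.13 in both. The groups did not overlap with library totals in 11 members below and 4 above the control mice, beside 6.92% and 26.5% of the tested genes, a check added after the data were seen. As a share of a library's total counts, the members took 5 to 5.18% in the mAktDKO mice and 5.37 to 5.51% in the control mice. The larger part of this share was Atp2a1 alone (2.58 to 2.72% against 2.76 to 2.87%), and the other members took 2.43 to 2.53% against 2.53 to 2.7%.

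**Figure D1:**
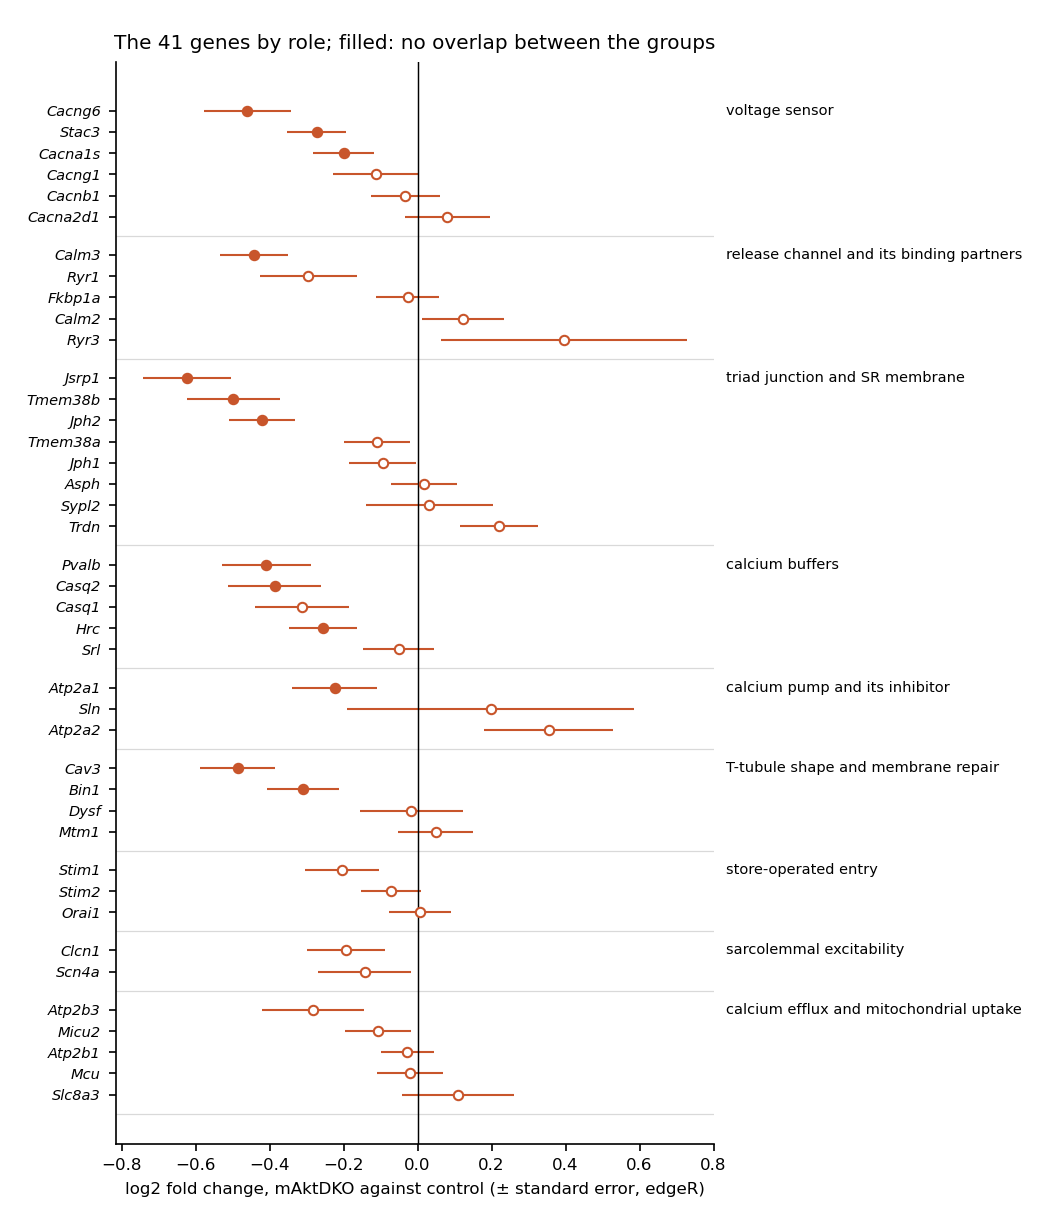
Log2 fold change of each of the 41 genes (mAktDKO against control, edgeR with TMM scaling, 3 mice in each group) with its standard error as a bar, grouped by role. The filled points are the 13 genes whose groups do not overlap, and all of them lie below 0.

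The libraries held 13738795 to 15445523 counts, so that 3 counts, taken as the floor, correspond to 0.18 to 0.227 CPM (counts scaled to a common library size). All 41 members passed the filter on low counts. Values below are TMM-scaled CPM in the order mAktDKO 1, 2 and 3 and then control 2, 3 and 4, as the columns of the table are numbered. Akt2, a targeted gene, was at 51.3, 49.1 and 52.7 CPM in the mAktDKO mice against 172, 133 and 143 CPM in the control mice, with a log2 fold change of -1.55 (edgeR adjusted p = 0.000923). For Akt1 the log2 fold change was -0.25 (edgeR adjusted p = 0.114). Control 2 stood apart from the other libraries, its log2 CPM correlating with theirs at 0.9612 to 0.977, where each other library reached at least 0.9822 with another. Without it, 33 members had a log2 fold change below 0, 1 passed an adjusted p of 0.05 (1.1% of the tested genes), and 14 lay below control in every mouse (19.8% of the tested genes). Groups with fewer mice also separate more easily.

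Promoter sequences are shown for the members that DESeq2 called and for which the RefSeq promoter table (GRCm38.p6) has an entry. Each runs 5′ to 3′ on the strand of the gene from 250 bases before the annotated start to 50 bases after it. Capitals mark letters that match an E-box (CANNTG, bound by myogenic factors among others), a MEF2 site, a CArG box or the forkhead motif GTAAACA on either strand. The windows are chr2:163397944-163398243 on the minus strand for Jph2, chr6:112459255-112459554 on the plus strand for Cav3, chr15:78206351-78206650 on the minus strand for Pvalb and chr7:16923983-16924282 on the minus strand for Calm3.
Jph2: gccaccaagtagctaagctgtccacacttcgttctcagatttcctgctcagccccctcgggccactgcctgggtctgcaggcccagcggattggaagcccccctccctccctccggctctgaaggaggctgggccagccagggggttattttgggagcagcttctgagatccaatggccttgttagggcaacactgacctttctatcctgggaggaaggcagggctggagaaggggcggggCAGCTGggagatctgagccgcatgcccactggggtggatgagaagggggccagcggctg
Cav3: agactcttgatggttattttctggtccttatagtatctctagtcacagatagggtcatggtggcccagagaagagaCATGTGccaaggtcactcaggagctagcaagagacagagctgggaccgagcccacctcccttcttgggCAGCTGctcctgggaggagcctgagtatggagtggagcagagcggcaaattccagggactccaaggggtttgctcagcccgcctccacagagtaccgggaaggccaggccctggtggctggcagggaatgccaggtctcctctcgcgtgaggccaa
Pvalb: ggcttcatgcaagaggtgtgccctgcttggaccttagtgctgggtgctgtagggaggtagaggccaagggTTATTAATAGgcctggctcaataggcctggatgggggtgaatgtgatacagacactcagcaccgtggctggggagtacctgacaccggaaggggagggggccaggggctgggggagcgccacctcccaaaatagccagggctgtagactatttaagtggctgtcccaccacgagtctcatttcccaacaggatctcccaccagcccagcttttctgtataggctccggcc
Calm3: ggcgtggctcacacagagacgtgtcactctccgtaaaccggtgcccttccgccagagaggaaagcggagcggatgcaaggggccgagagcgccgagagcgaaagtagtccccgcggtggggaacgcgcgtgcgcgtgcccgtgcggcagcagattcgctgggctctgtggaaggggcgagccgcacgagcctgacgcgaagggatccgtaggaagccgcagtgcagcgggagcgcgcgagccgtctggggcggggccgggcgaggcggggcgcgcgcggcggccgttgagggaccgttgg

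The Jph2 window held 1 E-box close to the start, the Cav3 window 2 E-boxes, the Pvalb window 1 MEF2 match, and the Calm3 window 0 matches to these motifs. Of the 27 members with an entry, 18 (66.7%) held an E-box, against 72.1% of all 27025 promoters of the same length. A MEF2 match was found for 3 of the 27 (11.1%), namely Casq2, Pvalb and Clcn1, against 1.91% of all promoters. GGAAAA, the core of NFAT sites, which is not capitalised, was found for 5 (18.5%) against 23.6%. GTAAACA was found for 0 of the 27 against 3.52%, and the CArG box for 0 against 1.59%. The motifs were searched on both strands and may overlap one another. A match describes the letters of the window and is not a binding site.

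The voltage sensor is built from CaV1.1, the pore and sensor subunit encoded by Cacna1s, with the auxiliary subunits encoded by Cacna2d1, Cacnb1, Cacng1 and, related to the last, Cacng6. Stac3 encodes an adaptor that is needed for CaV1.1 to reach the triad and to couple with RYR1. Of these 6 genes, 5 had a log2 fold change below 0 (47.5% of all tested genes) and 3 lay below control in every mouse (16.6%), while with library totals 3 were below 0. Cacna1s was at 1062, 1066 and 1145 CPM in mAktDKO muscle against 1254, 1244 and 1261 CPM in control muscle. The control mice were close together, and each mAktDKO mouse was below them. The log2 fold change of Cacna1s was -0.20 ± 0.08 (SE, n = 3 against 3, edgeR adjusted p = 0.179). Stac3 was at 101, 105 and 113 CPM against 133, 129.9 and 122 CPM. Its groups did not overlap, and its log2 fold change was -0.27 ± 0.08 (SE, edgeR adjusted p = 0.0949).

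Cacng6 had the largest difference among the genes of the voltage sensor, at 19.9, 16.8 and 20.8 CPM in mAktDKO muscle against 29.4, 24.9 and 24.6 CPM in control muscle. Control 2 was the highest and mAktDKO 2 the lowest, with a gap between the groups. Its log2 fold change was -0.46 ± 0.12 (SE, edgeR adjusted p = 0.0733). For Cacng1, Cacnb1 and Cacna2d1 the groups overlapped, with log2 fold changes of -0.11, -0.03 and 0.08 (edgeR adjusted p = 0.572, 0.852 and 0.694). The 95% interval for Cacnb1, the subunit that brings CaV1.1 to the membrane, ran from -0.24 to 0.18.

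Ryr1 encodes the release channel of the SR. It lies at chr7:29003344-29125179 on the minus strand (GRCm38), 1.36 Mb from Akt2, a targeted gene. Ryr1 was at 6005, 5775 and 6969 CPM in mAktDKO muscle against 8731, 6688 and 7588 CPM in control muscle. Control 2 was the highest, and mAktDKO 3 lay above control 3, so that the groups overlapped. Its log2 fold change was -0.30 ± 0.13 (SE, edgeR adjusted p = 0.202). Ryr3, a second ryanodine receptor of low level in adult limb muscle, was at 4.12, 3.53 and 6.10 CPM against 5.31, 2.26 and 2.8 CPM. The groups overlapped (log2 fold change 0.40 ± 0.33 SE, edgeR adjusted p = 0.482). The log2 fold change was 0.13 without mAktDKO 3 and 0.85 without control 2.

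Calmodulin binds RYR1 and CaV1.1, and the members Calm2 and Calm3 encode it. Calm3 (chr7:16915379-16924114, minus strand) was at 189, 161 and 171 CPM in mAktDKO muscle against 251, 219.6 and 236 CPM in control muscle. Every mAktDKO mouse was below every control mouse. The log2 fold change was -0.44 ± 0.09 (SE, edgeR adjusted p = 0.0540), and the adjusted p with DESeq2 was 0.00159, within a range of 0.00146 to 0.245 over the alternatives tried. Calm2 had overlapping groups and a log2 fold change of 0.12 (edgeR adjusted p = 0.510), with an interval of -0.13 to 0.37. Fkbp1a, which encodes the RYR1-binding protein FKBP12, had a log2 fold change of -0.03 with an interval of -0.22 to 0.17.

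Of the 8 genes of the triad junction and SR membrane, 5 were lower and 3 higher in the mAktDKO mice by the sign of the fold change, and 3 lay below control in every mouse, beside 16.6% of all tested genes. With library totals 3 were lower and 5 higher. Jsrp1 (chr10:80808496-80813498, minus strand) encodes JP-45, an SR protein that binds CaV1.1 and calsequestrin 1. It was at 139.7, 129.9 and 144 CPM in mAktDKO muscle against 253, 199 and 186 CPM in control muscle. The mAktDKO mice were close together, and the control mice were spread above them with control 2 the highest. The mean was 138 ± 7.35 CPM against 213 ± 35.6 CPM (SD, n = 3 each), and the log2 fold change was -0.62 ± 0.12 (SE, edgeR adjusted p = 0.0482). Over the alternatives its log2 fold change ranged from -0.71 to -0.48 and its adjusted p from 0.000120 to 0.234.

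Junctophilins tie the SR to the T-tubule membrane. Jph2 (chr2:163336242-163397993, minus strand), whose promoter is shown above, was at 595, 520.4 and 599 CPM in mAktDKO muscle against 796, 741 and 759 CPM in control muscle. The groups were separated by a gap wider than the spread within either. Jph2 had a log2 fold change of -0.42 ± 0.09 (SE, edgeR adjusted p = 0.0562), and over the alternatives the adjusted p ranged from 0.000906 to 0.245. Jph1, the other junctophilin of skeletal muscle, was at 523, 538 and 609.7 CPM against 590.5, 618 and 576 CPM. Its groups overlapped (log2 fold change -0.09 ± 0.09 SE, edgeR adjusted p = 0.536), and with library totals its sign turned to 0.04.

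The TRIC channels carry potassium across the SR membrane against the charge of the released calcium. Tmem38b, which encodes TRIC-B, was at 53.6, 46.1 and 59.7 CPM in mAktDKO muscle against 87.0, 68.8 and 69.2 CPM in control muscle, and the groups did not overlap. Its log2 fold change was -0.50 ± 0.13 (SE, edgeR adjusted p = 0.0714). Tmem38a, encoding TRIC-A, the main form in skeletal muscle, had overlapping groups and a log2 fold change of -0.11 (edgeR adjusted p = 0.472). The remaining genes of the junction were Trdn (triadin, which anchors calsequestrin near RYR1), Asph (whose products include junctin) and Sypl2 (mitsugumin 29). Their groups overlapped, and their log2 fold changes were 0.22, 0.02 and 0.03 (edgeR adjusted p = 0.235, 0.924 and 0.926).

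**Figure D2:**
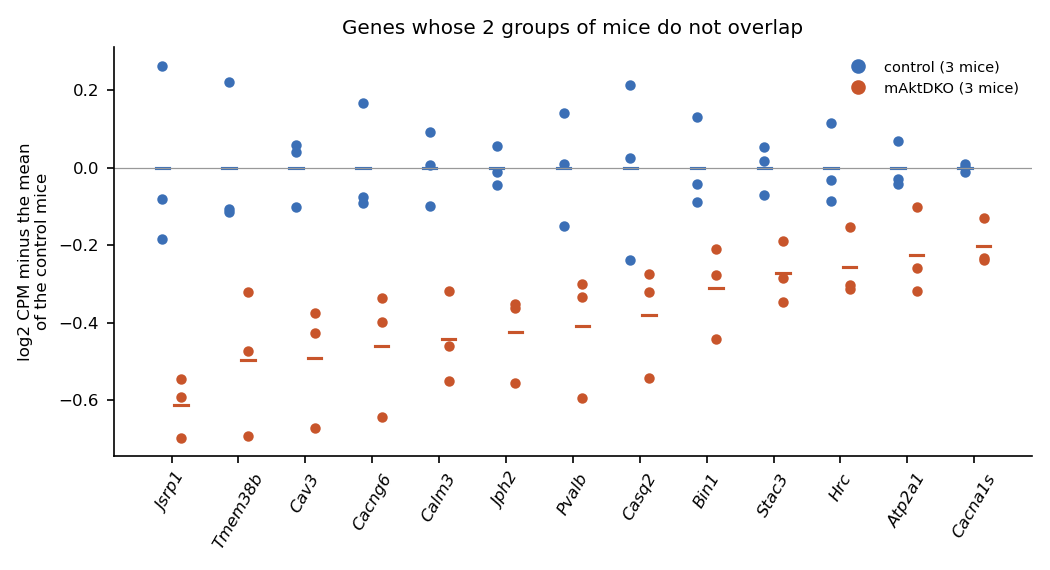
Log2 CPM of the 13 genes whose groups do not overlap, in each of the 6 mice, minus the mean of the 3 control mice (points, with a bar at the mean of each group). In Casq2, Hrc and Atp2a1 the highest mAktDKO mouse lies close under the lowest control mouse, and in Jph2 and Jsrp1 the gap is wider.

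All 5 calcium buffers had a log2 fold change below 0 (median -0.31), beside 47.5% of all tested genes, and 3 of them lay below control in every mouse, beside 16.6%. With library totals 4 of the 5 were below 0 and the median was -0.18. Pvalb, the cytosolic buffer of fast fibres, was at 3372, 2752 and 3299 CPM in mAktDKO muscle against 3741, 4583 and 4183 CPM in control muscle, with mAktDKO 2 the lowest. Pvalb had a log2 fold change of -0.41 ± 0.12 (SE, edgeR adjusted p = 0.0966). DESeq2 gave an adjusted p of 0.00997, just under the threshold, and the alternatives ranged from 0.00913 to 0.326.

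Casq1, the main calsequestrin of fast fibres, which stores calcium in the SR, was at 2946, 2529 and 2645 CPM in mAktDKO muscle against 2825, 3797 and 3459 CPM in control muscle. Control 2 lay among the mAktDKO mice, so that the groups overlapped. Its log2 fold change was -0.31 ± 0.13 (SE, edgeR adjusted p = 0.176). Without 1 mouse it ranged from -0.42 to -0.22, with an edgeR adjusted p from 0.0871 (without control 2) to 0.437. Casq2, the form of slow fibres and heart, was at 39.6, 38.3 and 32.8 CPM against 55.5, 48.7 and 40.5 CPM. The highest mAktDKO mouse lay just under control 4, and the log2 fold change was -0.39 ± 0.13 (SE, edgeR adjusted p = 0.118). Hrc, a histidine-rich calcium-binding protein of the SR lumen, was at 552, 548 and 612 CPM against 666, 738 and 642 CPM, and these groups did not overlap (log2 fold change -0.26 ± 0.09 SE, edgeR adjusted p = 0.142). Srl, which encodes sarcalumenin, had a log2 fold change of -0.05 with an interval of -0.27 to 0.17.

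The pump genes differed in sign. Atp2a1, which encodes SERCA1, the pump of fast fibres, was at 24674, 23703 and 27533 CPM in mAktDKO muscle against 31019.9, 28967 and 28706 CPM in control muscle. The groups did not overlap, with a log2 fold change of -0.22 ± 0.11 (SE, edgeR adjusted p = 0.256). Atp2a2, which encodes SERCA2, the pump of slow fibres and heart, was at 364, 402 and 254 CPM against 273, 304 and 221 CPM. Here mAktDKO 1 and mAktDKO 2 were the highest of the 6 mice and mAktDKO 3 lay among the control mice. Atp2a2 had a log2 fold change of 0.36 ± 0.17 (SE, edgeR adjusted p = 0.242). This value was 0.22 without mAktDKO 2 and 0.51 without mAktDKO 3.

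Of the 9 slow fibre genes listed, 6 were highest in the mouse where Atp2a2 was highest, and Myl2, Myh7b and Myoz2 were not. The summed level of the 9, of which Myh7 is the most abundant, was 975, 1178 and 621 CPM in mAktDKO muscle against 569, 761 and 550.5 CPM in control muscle, and mAktDKO 2 was highest and control 4 lowest in both this sum and Atp2a2. Of these 9 genes, 7 had a log2 fold change above 0 (median 0.44, and 0.59 with library totals), and 0 had groups that did not overlap. The 10 fast fibre genes listed were all below 0 (median -0.29), 6 of them with groups that did not overlap (beside 16.6% of all tested genes in this direction), and 8 of the 10 were below 0 with library totals. DESeq2 passed 5 of the 10 at 0.01, all lower, beside 2.28% of the genes. Myl1 (log2 fold change -0.39), among the 6 and among these 5, is the gene of the Mlc1f locus from which Cre is expressed. The part of the Cre insertion in its level was not tested. The summed level of the 10 was 93076 to 102871 CPM in the mAktDKO mice and 107695 to 115606 CPM in the control mice. Myh4, the most abundant of them, had overlapping groups, with means of 49979 CPM in mAktDKO and 50609 CPM in control muscle. Its log2 fold change was -0.02 (edgeR adjusted p = 0.944). The study reports lower Myh4 in fast-twitch muscle of older mAktDKO mice by RT-PCR. The part of fibre type in the values of the members was not tested.

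Sln encodes sarcolipin, a small inhibitor of SERCA, and was close to the limit of detection, at 0.697, 0.899 and 1.44 CPM against 0.629, 0.948 and 1.06 CPM. The groups overlapped, and a difference was not detectable at this depth (log2 fold change 0.20, with an interval of -0.68 to 1.07).

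Among the 4 genes of T-tubule shape and membrane repair, Cav3 and Bin1 lay below control in every mouse, beside 16.6% of all tested genes. Of the 4, 3 had a log2 fold change below 0, and 2 did with library totals. Cav3 (chr6:112459505-112472872, plus strand) encodes caveolin 3, the muscle form of the protein that shapes caveolae. It was at 31.4, 30.3 and 25.6 CPM in mAktDKO muscle against 41.9, 42.5 and 38.0 CPM in control muscle. Each mAktDKO mouse was below each control mouse, with mAktDKO 3 the lowest. The log2 fold change was -0.49 ± 0.10 (SE, edgeR adjusted p = 0.0540), the adjusted p with DESeq2 was 0.00697, and the alternatives ranged from 0.00640 to 0.233.

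Bin1, which encodes the membrane-bending protein amphiphysin 2, was at 328, 293 and 344 CPM in mAktDKO muscle against 435, 374 and 386 CPM in control muscle. The groups did not overlap, and the log2 fold change was -0.31 ± 0.10 (SE, edgeR adjusted p = 0.108). Mtm1, which encodes the lipid phosphatase myotubularin, was at 16.4, 18.5 and 15.8 CPM against 16.8, 16.4 and 15.7 CPM, and its groups overlapped (log2 fold change 0.05, interval -0.18 to 0.28). Dysf, which encodes the repair protein dysferlin, had a log2 fold change of -0.02 with an interval of -0.33 to 0.30.

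Store-operated entry refills the SR from outside the fibre, with STIM proteins as sensors of SR calcium and ORAI1 as the channel. None of the 3 genes had groups that did not overlap. Stim1 was at 233, 225 and 243 CPM in mAktDKO muscle against 305, 260.4 and 241 CPM in control muscle. Here mAktDKO 3 lay just above control 4 (log2 fold change -0.20 ± 0.10 SE, edgeR adjusted p = 0.241). The log2 fold change was -0.11 without control 2 and -0.065 with library totals. Stim2 was at 38.2, 41.5 and 42.6 CPM against 41.7, 42.4 and 44.5 CPM (log2 fold change -0.07). Its interval ran from -0.25 to 0.11, and with library totals the log2 fold change was 0.07. Orai1 was at 25.4, 26.1 and 26.7 CPM against 27.1, 26.1 and 24.6 CPM, and the groups lay over each other (log2 fold change 0.01, interval -0.18 to 0.20).

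Of the sarcolemmal channels, Scn4a encodes the sodium channel that carries the action potential and Clcn1 the chloride channel that steadies the resting membrane. Scn4a was at 501, 479 and 578 CPM in mAktDKO muscle against 676, 536 and 509 CPM in control muscle. Clcn1 was at 119, 118 and 137 CPM against 161, 135 and 130.4 CPM. In both, control 2 was the highest and mAktDKO 3 lay among the control mice. The log2 fold changes were -0.14 ± 0.13 and -0.19 ± 0.11 (SE, edgeR adjusted p = 0.503 and 0.282). Without control 2 they were -0.0088 for Scn4a and -0.095 for Clcn1.

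The genes of calcium efflux and mitochondrial uptake showed no separation of the groups. Atp2b3, a plasma membrane calcium pump, was at 18.5, 15.2 and 19.9 CPM in mAktDKO muscle against 23.6, 18.2 and 23.2 CPM in control muscle (log2 fold change -0.28 ± 0.14 SE, edgeR adjusted p = 0.242). Slc8a3, the sodium-calcium exchanger NCX3, was at 71.5, 86.0 and 94.5 CPM against 94.5, 64.3 and 74.6 CPM (log2 fold change 0.11). Micu2, a regulator of the mitochondrial uniporter, was at 31.2, 36.7 and 33.7 CPM against 36.9, 37.5 and 35.2 CPM (log2 fold change -0.11). In Atp2b3 and Micu2 at least 1 mAktDKO mouse lay among the control mice, and in Slc8a3 the groups were mixed. The intervals for the uniporter pore Mcu (-0.22 to 0.18) and for the pump Atp2b1 (-0.19 to 0.13) also held 0.

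**Figure D3:**
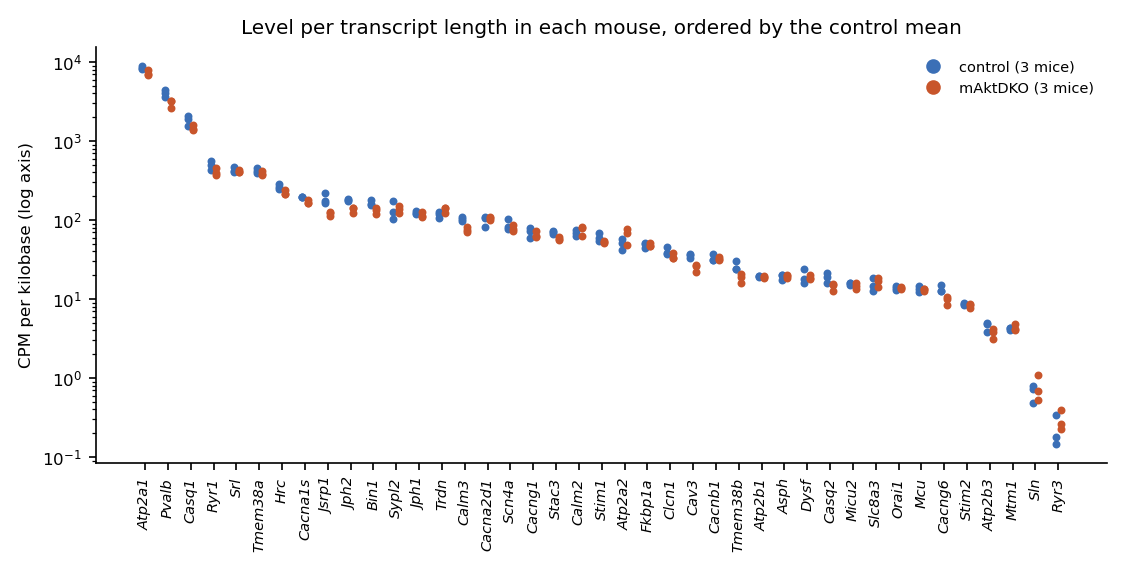
CPM per kilobase of merged exons in each mouse (log axis), for the 41 genes in order of the control mean. Atp2a1, Pvalb and Casq1 lead in both groups, and Ryr3 and Sln are the lowest.

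To compare levels between genes, CPM were divided by the length of the merged exons of each gene. In the control mice Atp2a1 was the highest at 8503 CPM per kilobase, followed by Pvalb at 4005 and Casq1 at 1819. The values of these 3 genes did not overlap in the control mice. Next came Ryr1 at 497, Srl at 431 and Tmem38a at 422, whose values overlapped between the genes, so that their order is not resolved. At the low end were Sln at 0.667 and Ryr3 at 0.220. In the mAktDKO mice the first 3 genes came in the same order, at 7277, 3017 and 1465 CPM per kilobase.

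Several members are related genes that encode forms of the same protein. For 6 such pairs the ratio of the levels per kilobase was compared by an exact two-sided permutation test over the mice, which with 3 against 3 cannot give a p below 0.1. The Jph2 to Jph1 ratio was 128.5, 109 and 111% in the mAktDKO mice and 152, 136 and 149% in the control mice (exact p = 0.1, adjusted over the 6 pairs 0.2). The Tmem38b to Tmem38a ratio was 4.85, 4.33 and 5.02% against 6.77, 5.76 and 6.06% (exact p = 0.1, adjusted 0.2). In both pairs the groups did not overlap. The ratio was lower in all 3 mAktDKO mice.

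The Atp2a2 to Atp2a1 ratio was 0.972, 1.12 and 0.607% in the mAktDKO mice and 0.579, 0.691 and 0.507% in the control mice, and mAktDKO 3 lay among the control mice (exact p = 0.2, adjusted 0.3). The Ryr3 to Ryr1 ratio was 0.0676, 0.0603 and 0.0862% against 0.0599, 0.0333 and 0.0363%, where mAktDKO 2 and control 2 were nearly equal (exact p = 0.1, adjusted 0.2). For Casq2 to Casq1 and for Stim2 to Stim1 the groups overlapped (exact p = 0.9 and 0.4, adjusted 0.9 and 0.48). Control 2 had the highest Casq2 to Casq1 ratio, at 1.42% against 0.844 to 1.09% in the other mice, and without it the log2 difference changed sign from -0.07 to 0.15.

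**Figure D4:**
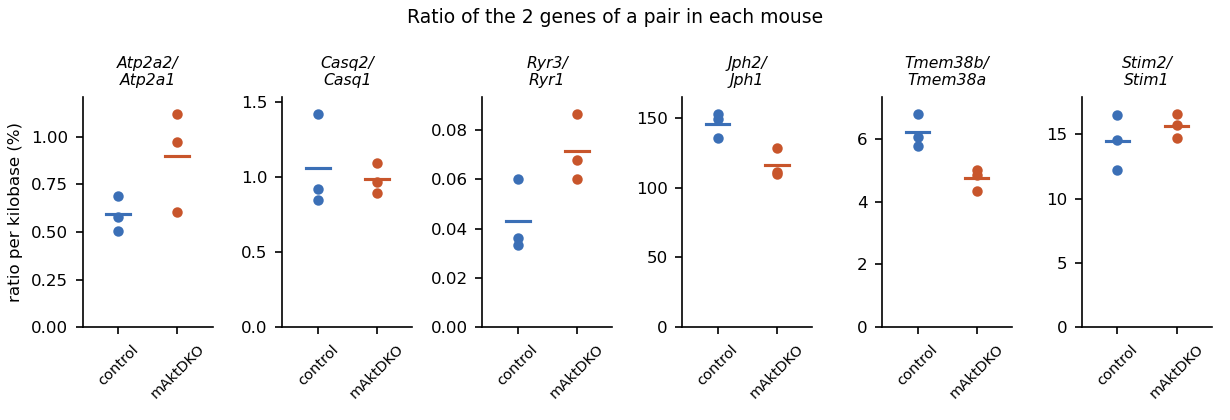
Ratio of the levels per kilobase of the 2 genes of each pair, in percent, in each mouse (points) with the mean of each group (bar). The groups are apart for Jph2 to Jph1 and Tmem38b to Tmem38a, with the mAktDKO mice lower, and for Ryr3 to Ryr1 they nearly touch.

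Of the 66 other genes listed for the pathway that are not members, 61 were tested, of which 32 had a log2 fold change below 0 and 29 above it, with a median of -0.02. With library totals 23 were below 0 and 38 above it. Groups did not overlap in 25 (41%, beside 31.1% of all tested genes), with 15 below and 10 above the control mice (beside 16.6% and 14.6% of all tested genes). At an edgeR adjusted p of 0.05, 1 passed, Homer2, beside 1.18% of the tested genes, and 0 passed 0.01. An unadjusted p under 0.05 was found in 24, beside 24.5% of the tested genes, with 16 lower and 8 higher in the mAktDKO mice. DESeq2 passed 5 at 0.01, beside 3.09% of the genes it adjusted, and all 5 were lower. Homer2 encodes a scaffold protein that binds ryanodine and other calcium channels and lies at chr7:81600481-81707527 on the minus strand. It was at 50.4, 53.2 and 47.6 CPM in mAktDKO muscle against 112, 82.6 and 78.4 CPM in control muscle. The groups did not overlap, and the log2 fold change was -0.85 ± 0.13 (SE, edgeR adjusted p = 0.0394).

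**Figure D5:**
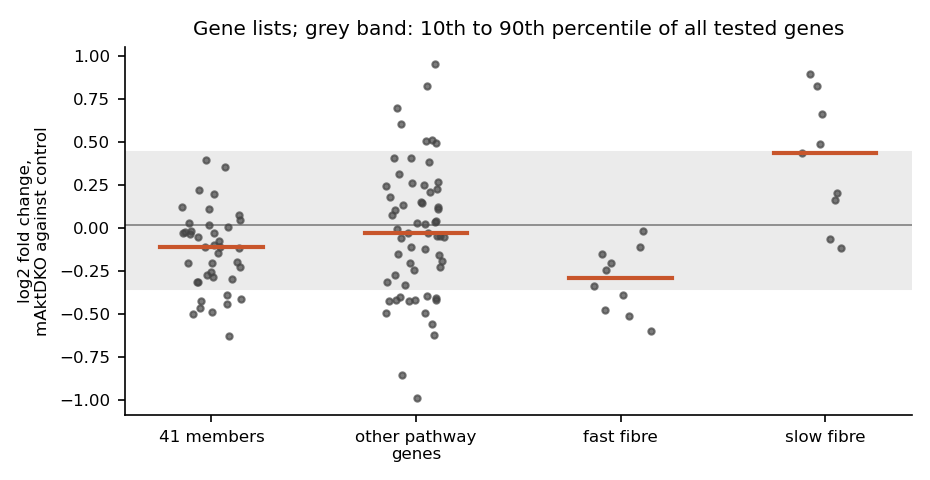
Log2 fold change (mAktDKO against control, edgeR with TMM scaling) of each tested gene in 4 lists, with a bar at the median of each list and a grey band from the 10th to the 90th percentile of the 12892 tested genes (-0.35 to 0.44). The medians are -0.11 for the members, -0.02 for the other pathway genes, -0.29 for the fast fibre genes and 0.44 for the slow fibre genes.

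Of 36 tested markers of cells other than skeletal muscle fibres, blood left out, 0 passed an edgeR adjusted p of 0.05, 14 had an unadjusted p under 0.05 and 3 passed 0.01 with DESeq2. All of these were higher in the mAktDKO mice, beside 11.4% of all tested genes and 0.809% of the genes that DESeq2 adjusted. The 5 markers of fibro-adipogenic progenitors had log2 fold changes above 0, and their summed level was 18280 to 21736 CPM in the mAktDKO mice and 7284 to 18401 CPM in the control mice, lowest in control 2, so that it overlapped. Most of this sum is Col1a1, and the levels of Dcn (587 to 699 against 372 to 477 CPM) and Pdgfra (79.3 to 87.9 against 62.8 to 75.7 CPM) did not overlap. The 5 adipocyte markers and the 5 macrophage and leukocyte markers were also all above 0, with summed levels of 51.8 to 157 against 40.6 to 88.3 CPM and of 78.9 to 102 against 49.8 to 85.5 CPM. Among the latter, Adgre1, Cd68 and Ptprc were higher in every mAktDKO mouse than in any control mouse, and 14.6% of all tested genes were so. These single markers are named after their values were seen. The 3 tendon markers were all above 0, and their sums did not overlap (782 to 1192 against 573 to 740.2 CPM). Of the endothelium markers 4 of 5 were above 0, of the nerve and Schwann cell markers 4 of 5, of the satellite cell markers 3 of 3 and of the smooth muscle markers 1 of 3 (3 of 3 with library totals). The 6 markers of muscle fibres in general were all below 0, also with library totals, and 1 of them, Mb (myoglobin), passed an edgeR adjusted p of 0.05 (log2 fold change -1.36, adjusted p = 0.0206). Of 4 markers of heart muscle, 2 were tested and Nppa was at 0 in every mouse, and no other marker was at 0 in all the mice. The part of these lists in the values of the members was not tested. In whole muscle, fewer cells of a type and less RNA of a gene per cell cannot be told apart.

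Chromosome 7, which carries Akt2, holds 6 members, namely Cacng6, Ryr1, Calm3, Hrc, Atp2a1 and Stim1. All 6 had a log2 fold change below 0, with a median of -0.28, and 4 lay below control in every mouse. Each of the 6 was below 0 in all 12 alternatives as well. Of the 923 tested genes of chromosome 7, 54.9% were below 0 and 20.8% lay below control in every mouse, with a median of -0.04. Chromosomes 1, 6 and 11 hold 3 members each, which were also all below 0 (medians of -0.20, -0.19 and -0.11). Below 0 were 2 of the 3 members on chromosome 2, 1 of the 4 on chromosome 5 and 4 of the 5 on chromosome 10 (medians of -0.03, 0.04 and -0.03). Chromosome 12, which carries Akt1, holds 1 member, Slc8a3, with a log2 fold change of 0.11. In GENCODE, Cacna1s, Ryr1, Ryr3, Jph1, Asph, Casq1, Atp2a1, Atp2a2, Bin1, Dysf and Orai1 share exon bases with a gene on the opposite strand. The libraries keep strand, but the strand setting of the counting is not given in the sources used here, so that a part of these counts may belong to the other gene. Tmem38b shares exon bases with n-R5s185 on its own strand, where strand does not separate the genes.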

How the data were processed

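RNA of EDL was taken from 3 mAktDKO and 3 control mice. Libraries were depleted of rRNA, kept strand and were read as pairs of 37 bp. The authors aligned the reads to mm10 with STAR (2.6.1b in the submitters' processing notes) and ran RSEM 1.3.1, whose expected counts per gene, unscaled, are what they deposited. They were rounded to whole numbers here. Between 3.36% and 4.09% of the values of a mouse were not whole.

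In R 4.3.3 with edgeR 4.0.16, filterByExpr (minimum count 10) kept 12892 of 24411 genes, TMM set the library factors and the quasi-likelihood test compared the groups. Adjusted p-values are Benjamini-Hochberg values over all tested genes, with calls at 0.01 and, beside them, at 0.05. The study itself ran DESeq2 and asked for an adjusted p under 0.01 together with a q value under 0.05. The standard error is the log2 fold change divided by the square root of F, and intervals are 95%. Positions and merged exon lengths came from GENCODE vM21 (GRCm38) and promoters from RefSeq. The p-values measure the spread between these 6 mice. The floor of 3 counts covers counting error only.

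Per-mouse values are given for 28 members: those with adjusted p under 0.05, the up to 3 with the smallest p in each role group, and Ryr1, Cacna1s, Atp2a1, Atp2a2, Casq1, Casq2, Pvalb, Sln, Stac3 and Jph1. Other pathway genes are named at an adjusted p under 0.05. One gene of the pathway lists is not reported here. The members and all the gene lists were chosen with earlier results of these data known.

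Alternatives were DESeq2 1.42.0, other scalings, no filter and leaving out each mouse. On counts simulated for the 12892 genes from the real means and spread, with 200 genes changed 2-fold, edgeR recovered 139 (69.5%) with 3 false calls and DESeq2 143 (71.5%) with 9. The largest difference of a member was smaller than this (log2 fold change -0.62). The recovery of differences as small as those of the members was not simulated. The check that this step had to pass was first set at a higher recovery, which edgeR did not reach, and was then replaced by checks on sign, size and false calls.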

Additional observations from a re-analysis of the deposited data

How the results depend on the processing

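No paired analysis was possible because the numbers on the columns of the control mice do not match those of the labelled control samples. The number of genes past the threshold was 3. It was 152 at an adjusted p of 0.05, 32 with no filter on low counts, 328 with DESeq2 and 341 with DESeq2 tuned to 0.01. At an unadjusted p under 0.05 there were 14 members, and 9 to 17 over the edgeR alternatives. The 9 were found with library totals (beside 3616 of 12892 tested genes) and without mAktDKO 2 (1871 of 13034). The 17 were found without mAktDKO 3 (2794 of 13151). Members past the threshold were 0 in the edgeR fits at 0.01, 1 at 0.05, 5 with DESeq2 and 6 with DESeq2 tuned to 0.01. The DESeq2 count rests on 2 versions of its filtering whose outputs had both been seen: Tmem38b was on the other side of 0.01 in each, at 0.0107 and 0.00982. Members below control in every mouse (13) were 14 to 21 when 1 mouse was left out, 21 of them without mAktDKO 3, and 11 with library totals. Beside this, 19 to 22.6% of all tested genes lay below control without 1 mouse (22.4% without mAktDKO 3) and 6.92% with library totals. Members above control in every mouse were 0 to 3 without 1 mouse (17.1 to 22.1% of all tested genes) and 4 with library totals (26.5%). Groups with fewer mice separate more easily, so that counts without 1 mouse tend to rise in any list. Leaving out 1 mouse gave 0 to 8 genes with edgeR. It was 0 without mAktDKO 1, 2 or 3 (2441, 1871 and 2794 genes at an unadjusted p under 0.05) and 8 without control 2. The member median (-0.11) was -0.18 to -0.069 without 1 mouse and turned to 0.027 with library totals. The Casq2 to Casq1 log2 ratio (mAktDKO minus control, -0.075) ranged from -0.22 to 0.15 when 1 mouse was left out, the highest being without control 2.

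Of the 28 named members, 21 kept their sign in all 12 alternatives and 7 did not. With library totals the log2 fold change was 0.039 for Jph1, 0.065 for Stim2 and 0.031 for Micu2. Orai1 was at -0.00062 with no filter and at -0.0026 with either DESeq2 version, and ranged from -0.031 to 0.036 without 1 mouse. Without 1 mouse, Sln ranged from -0.15 to 0.40, Mtm1 from -0.020 to 0.077 and Slc8a3 from -0.013 to 0.27. The cause was not tested. Without 1 mouse, Ryr1 ranged from -0.40 to -0.19 and Atp2b3 from -0.395 to -0.18. Jph1 ranged from -0.18 to -0.052, Stim2 from -0.12 to -0.027 and Micu2 from -0.17 to -0.052. The narrowest 95% interval of a member, that of Atp2b1, ran from -0.19 to 0.13, so smaller differences cannot be resolved with 3 mice a group. The edgeR adjusted p of Jsrp1 was 0.0376 to 0.234 when 1 mouse was left out, passing 0.05 without control 2 or 4 and not without any of the other 4. It was 0.0566 with library totals and 0.0508 with upper-quartile scaling, where 0 members passed 0.05. With no filter 4 members passed 0.05 (Calm3, Jph2, Jsrp1 and Cav3, beside 381 of 17360 genes). Without control 4 it was 2 (Jsrp1 and Cav3, beside 388 of 13127 genes). DESeq2 passed 8 at 0.05, those 4 with Cacng6, Tmem38b, Pvalb and Bin1, in either version. Beside them, 7.33% of the genes it adjusted passed, and 8.17% when tuned to 0.01.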

Other observations

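The 9 genes listed as markers of denervated or regenerating fibres did not move together. Myog, a myogenic factor, and Chrna1, a subunit of the acetylcholine receptor, were higher in every mAktDKO mouse than in any control mouse (log2 fold change 1.06 and 0.42, edgeR adjusted p = 0.0642 and 0.0752), beside 14.6% of all tested genes. Myh3, the embryonic myosin, was lower in every mAktDKO mouse (log2 fold change -1.30, edgeR adjusted p = 0.0474), beside 16.6% of all tested genes. With DESeq2, Myog and Myh3 passed 0.01 (adjusted p = 0.0038 and 1.08e-05) and Chrna1 did not (0.0629). The summed level of the list was 118, 142 and 128 CPM in mAktDKO muscle against 114, 107 and 116 CPM in control muscle.

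Hbb-bs, a haemoglobin beta gene on the list of blood markers, was at 23.5, 9.23 and 10.01 CPM in mAktDKO muscle and at 0 counts in all 3 control mice, which allows up to 0.21 to 0.227 CPM. The neighbouring copy Hbb-bt was at 23.1, 16.2 and 9.74 CPM against 13.2, 13.1 and 8.997 CPM, and its groups overlapped. The beta globin genes are close in sequence, and how their reads were divided was not tested. Both groups carry the same strain label, which was not checked against the reads.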
